A study of Homo sapiens with 6 samples.

Results

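The 35 genes described here mostly make cholesterol and fatty acids or control that synthesis. They comprise 19 enzymes of the mevalonate and sterol pathway, 7 genes grouped as SREBP regulators and 9 enzymes of fatty acid and glycerolipid synthesis. The 7 include the sterol carrier gene STARD4, the ubiquitin ligase gene MYLIP, and SREBF1 and SREBF2, which encode the SREBP transcription factors. All 35 genes were taken by symbol from a table of 61806 Ensembl gene IDs. Each had a row and passed the filter on low counts that left 19611 genes. The cells were U937, an established human monocytic line listed as AML (acute myeloid leukemia), in RPMI medium with serum. They received either ethacrynic acid, a loop diuretic that reacts with thiols (3 libraries), or the solvent DMSO as control (3 libraries). Library titles give day 3 and the treatment note gives 2 days of exposure, with no dose stated in the labels. No label says that replicates were separate cultures, so the spread behind every p-value and interval may be technical. In bulk RNA, fewer cells of a type and less RNA per cell cannot be told apart.

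Cholesterol is built from acetyl-CoA through mevalonate, farnesyl diphosphate, squalene and lanosterol. When sterols are scarce in the endoplasmic reticulum, SCAP escorts SREBP proteins to the Golgi, where proteases release a fragment that enters the nucleus and raises transcription of most of these enzymes. INSIG proteins hold SCAP back when sterols are plentiful. SREBP-2, from SREBF2, is known mainly for cholesterol genes, and SREBP-1c, from SREBF1, mainly for fatty acid genes. Macrophages also use oxysterol-activated LXR receptors to export cholesterol.

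RefSeq promoter windows (GRCh38.p14, 250 bases before to 50 after each transcript start) were matched for 31 of the 35 genes, in 46 windows. ACAT2, FDFT1, SQLE and FASN had none. The windows below are shown because they hold the letters through which sterol genes are classically read. Capitals mark CACCCCAC, the inner letters of the sterol regulatory element, and CCAAT, the box bound by NF-Y, on either strand. The SREBF2 window holds both, and the INSIG1 and FDPS windows hold CCAAT without CACCCCAC. Each sequence runs 5′ to 3′ on its gene's strand, which is plus for all 3.
SREBF2, chr22:41832855-41833154: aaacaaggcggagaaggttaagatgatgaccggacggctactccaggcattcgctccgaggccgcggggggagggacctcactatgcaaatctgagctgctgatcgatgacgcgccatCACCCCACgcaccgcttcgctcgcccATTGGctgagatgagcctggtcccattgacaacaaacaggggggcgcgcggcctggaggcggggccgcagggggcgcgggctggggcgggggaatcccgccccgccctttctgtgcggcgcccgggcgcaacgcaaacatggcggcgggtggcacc
INSIG1, chr7:155297628-155297927: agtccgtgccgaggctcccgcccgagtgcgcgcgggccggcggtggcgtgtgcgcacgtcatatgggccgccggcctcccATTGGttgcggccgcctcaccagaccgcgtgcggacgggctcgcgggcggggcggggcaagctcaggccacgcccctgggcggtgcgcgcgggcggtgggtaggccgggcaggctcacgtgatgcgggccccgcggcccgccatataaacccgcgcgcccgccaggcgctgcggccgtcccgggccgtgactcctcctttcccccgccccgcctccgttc
FDPS, chr1:155308616-155308915: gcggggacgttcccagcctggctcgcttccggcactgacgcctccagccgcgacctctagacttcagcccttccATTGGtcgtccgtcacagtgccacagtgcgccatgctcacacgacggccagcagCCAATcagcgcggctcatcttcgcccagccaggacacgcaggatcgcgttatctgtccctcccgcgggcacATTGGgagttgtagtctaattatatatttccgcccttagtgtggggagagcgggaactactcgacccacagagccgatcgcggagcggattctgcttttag

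SREBF2 was the only one of the 31 genes with CACCCCAC in such a window, where the match begins 132 bases before the start. There it lies within the longer TCACCCCAC. CACCCCAC was in 2.17% of the 46 windows, in 2.85% of the 17552 windows of all tested genes and in 2.79% of all 35116 windows. TCACCCCAC was in 2.17%, 0.405% and 0.43% of them. The CCAAT box was in 58.7% of the 46 windows, against 34.2% of windows of tested genes and 34.6% of all. By gene it was found for 14 of 16 sterol enzymes, 4 of 7 regulators and 5 of 8 fatty acid enzymes. Here a gene counted if any of its windows held the box. No such share by gene was taken for all tested genes, so these counts do not compare with the shares of windows. GGGCGG, the Sp1 box, was in 87.0% of the 46 windows, against 63.2% of windows of tested genes and 45.0% of all. CACGTG, an E-box, was in 10.9%, 9.14% and 7.26%. Windows of the same gene can overlap, so a single site may count more than once, as the CACGTG of SC5D does. All motifs were searched on both strands, and a match describes letters, not a bound site. Only these exact letters were searched, so a variant of an element would not be counted.

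The 3 ethacrynic acid libraries held 57516146 to 66677543 counts and the 3 control libraries 66907158 to 68128543. Each treated library was thus shallower than each control (exact two-sided permutation p = 0.1, the smallest possible with 3 against 3). Levels are given as CPM, which are counts per 1e+06 TMM-scaled counts of a library. Ethacrynic acid replicate 3 stood apart, with a score of 93.9 on the leading principal component of all tested genes, against -36.9 to -10.4 for the other 5 libraries. The epithelial genes EPCAM and KRT18 were at 40.95 and 91.4 CPM in that library and at no more than 5.48 and 10.8 CPM in any other. All 10 markers fixed for the monocytic line were detected, with sums of 2683, 2748 and 2159 CPM with ethacrynic acid and 1956 to 2089 CPM in control. Of these 10, 5 had positive and 5 negative log2 fold changes, with a median of 0.00 and no call in the edgeR test of all 6 libraries. The lysozyme gene LYZ averaged 656 CPM with ethacrynic acid and 210.5 CPM in control (edgeR adjusted p = 0.11), CD68 149 and 72.7 CPM (0.059), and the leukocyte gene PTPRC 147 and 208 CPM (0.35), each with groups that did not overlap. DESeq2 called LYZ and CD68 as higher (adjusted p = 5.1e-07 and 9.2e-08). So did edgeR without ethacrynic acid replicate 3 (adjusted p = 0.036 and 0.0028), and neither called PTPRC. Of 10 markers of other cell types, HBB and ALB had 0 counts in every library. The sums of those 10 were 122, 120.0 and 216 CPM with ethacrynic acid replicates 1, 2 and 3 and 105 to 117 CPM in control, of which the endothelial and leukocyte gene PECAM1 gave 75.1 to 97.1 CPM.

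None of the 35 genes passed the test between ethacrynic acid and control libraries in either direction (edgeR quasi-likelihood test, Benjamini-Hochberg adjusted p under 0.05). Among all 19611 tested genes, 0.229% were called higher and 0.0357% lower. At an unadjusted p under 0.05, 6 of the 35 genes were higher and 0 lower, against 6.54% and 4.6% of all tested genes. These 6 were FASN, INSIG1, FDPS, LSS, SQLE and HSD17B7. DESeq2 called 1 of the 35, FASN, where it called 2.0% of all tested genes as higher and 1.05% as lower, and limma-voom called 0. Without ethacrynic acid replicate 3, edgeR called 0 of the 35, where 0.592% of all tested genes were higher and 0.138% lower.

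The intervals show what size of change these libraries leave possible, and they need not bound the change between separate cultures. In 32 of the 35 genes the 95% interval of the fold change, not adjusted for the number of genes, lay wholly within a 2-fold change in either direction. The same held for 62.7% of all tested genes. INSIG1, HSD17B7 and ELOVL6 were the 3 whose intervals reached past 2-fold. For 25 genes the interval lay within a 1.5-fold change, as it did for 8042 of all 19611 tested genes. The 35 genes were not compared with genes of matched level, so these counts show no trait of the set.

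**Figure D1:**
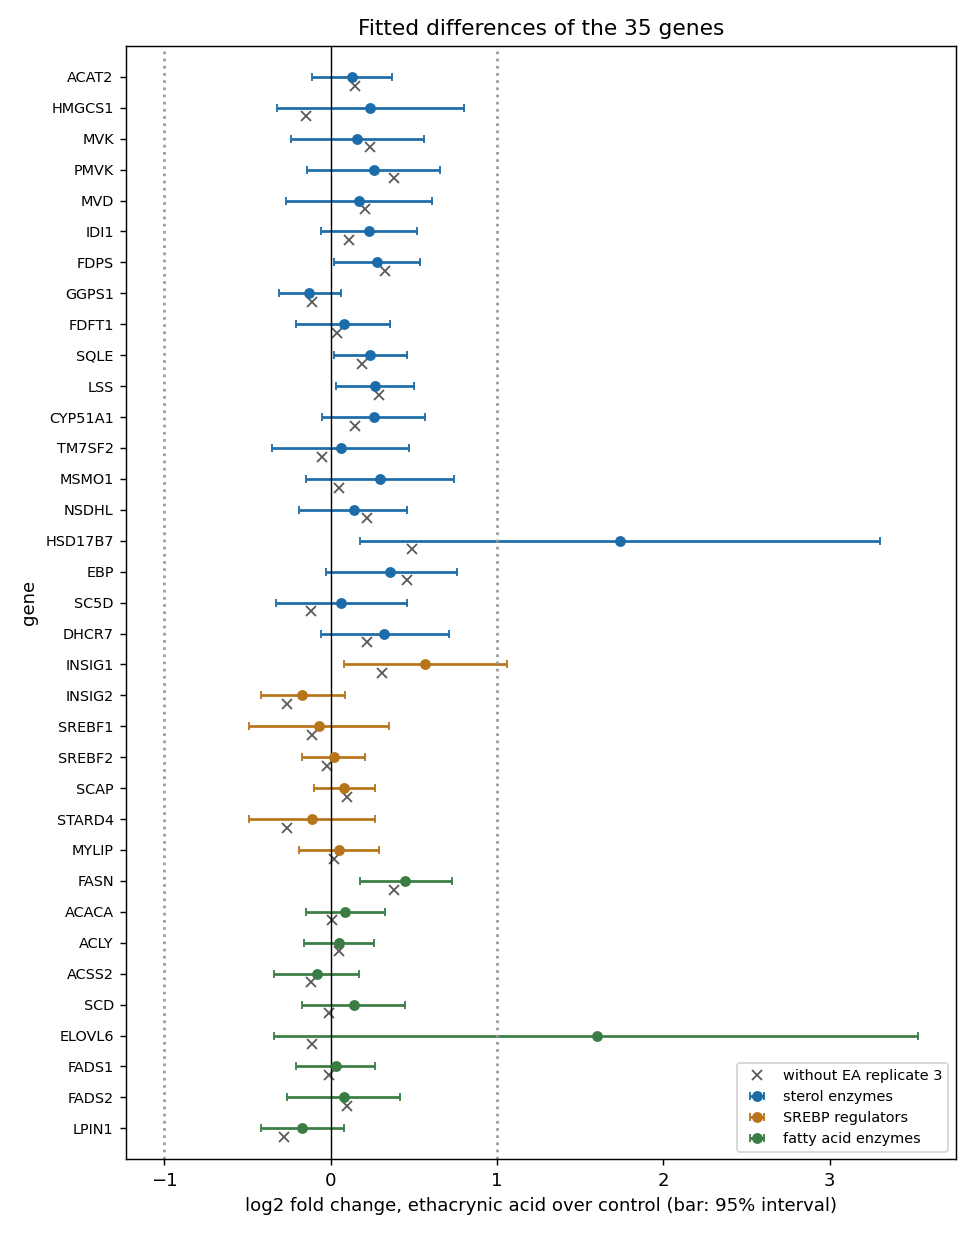
Fitted log2 fold changes of the 35 genes, ethacrynic acid over control, with 95% intervals (bars) and coloured by role; crosses give the value without ethacrynic acid replicate 3 and dotted lines mark 2-fold. Most points lie between -0.17 and 0.57, and the wide bars of HSD17B7 and ELOVL6 go with crosses at 0.49 and -0.11.

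The fitted log2 fold changes leaned upward, without a call. They were positive for 29 of the 35 genes, against 49.9% of all tested genes, with a median of 0.14 against 0.00 for all tested genes. The lean was largest for the sterol enzymes, with 18 of 19 positive and a median of 0.24. For the 7 regulators the median was 0.02 with 4 positive, and for the 9 fatty acid enzymes it was 0.08 with 7 positive. Without ethacrynic acid replicate 3 the positive counts were 15 of 19, 3 of 7 and 4 of 9 (47.3% of all tested genes), with medians of 0.19, -0.02 and -0.01. Without replicate 1 they were 14 of 19, 5 of 7 and 6 of 9, with medians of 0.18, 0.02 and 0.10. Over the 13 alternatives the median of the 35 genes lay between 0.05 and 0.20, and that of all tested genes between -0.08 and 0.01. Genes are not replicates, so these counts describe the libraries. The lean was not compared with that of genes of matched level.

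The groups did not overlap for 7 genes. FDPS, SQLE, LSS, HSD17B7, SCAP and FASN were higher in every ethacrynic acid library than in any control library, 17.1% of the 35, where 8.64% of all tested genes were. GGPS1 was lower in every ethacrynic acid library, 2.86% of the 35 against 8.99% of all tested genes. These shares, too, were not compared with genes of matched level.

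Among the enzymes from acetyl-CoA to isoprenoid units, the libraries of each group mostly intermixed. ACAT2, which joins acetyl-CoA units, averaged 124 ± 11.3 CPM with ethacrynic acid and 113.5 ± 9.75 CPM in control (SD, n = 3 each, as for all means here). HMGCS1, which makes HMG-CoA, was at 31.9, 30.9 and 59.6 CPM in ethacrynic acid replicates 1, 2 and 3, against 32.8, 35.8 and 35.2 CPM in control. Only replicate 3 was above the control range, and the first 2 were below it. The log2 fold change of HMGCS1 was 0.24 ± 0.24 (SE, edgeR adjusted p = 0.74) and was -0.15 without that library. The kinases MVK and PMVK, which add the successive phosphates to mevalonate, averaged 25.4 ± 5.69 and 44.6 ± 11.03 CPM with ethacrynic acid, against 22.7 ± 2.65 and 37.2 ± 2.94 CPM in control. MVD, which makes isopentenyl diphosphate, averaged 39.8 ± 10.1 CPM with ethacrynic acid and 35.4 ± 5.26 CPM in control. For MVK, PMVK and MVD the highest library was ethacrynic acid replicate 1. IDI1, the isomerase of that product, averaged 74.4 ± 12.1 CPM with ethacrynic acid and 63.4 ± 1.46 CPM in control, with replicate 3 highest.

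FDPS, which makes farnesyl diphosphate (ENSG00000160752, GRCh38 chromosome 1, 155308748 to 155320666), was at 257, 208 and 207 CPM with ethacrynic acid, against 193, 189 and 171 CPM in control. The lowest treated library stood above the highest control. The log2 fold change was 0.28 ± 0.11 (SE, unadjusted p = 0.038, edgeR adjusted p = 0.43), and the 95% interval of the fold was 1.01 to 1.45. GGPS1, which makes the longer geranylgeranyl diphosphate used to anchor proteins in membranes, was instead at 63.7, 60.9 and 59.2 CPM with ethacrynic acid and 66.2, 67.7 and 66.6 CPM in control. Its log2 fold change was -0.13 ± 0.08 (SE, edgeR adjusted p = 0.58). GGPS1 shares exonic sequence with TBCE, which lies on the same strand, so the division of reads between them is uncertain.

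At the entry to sterols, FDFT1, the squalene synthase, averaged 289 ± 42.6 CPM with ethacrynic acid and 274 ± 13.8 CPM in control. SQLE, the squalene epoxidase and a rate-limiting step, was at 96.0, 97.8 and 106.5 CPM with ethacrynic acid, against 84.9, 91.2 and 78.1 CPM in control. LSS, the lanosterol synthase (ENSG00000160285, GRCh38 chromosome 21, 46188141 to 46228824), was at 209, 174 and 180.2 CPM with ethacrynic acid, against 164, 157 and 147 CPM in control. Both SQLE and LSS had groups that stood apart, by margins smaller than the range within the ethacrynic acid group. Their log2 fold changes were 0.24 ± 0.09 and 0.27 ± 0.10 (SE, unadjusted p = 0.034 and 0.031, edgeR adjusted p = 0.42 for each).

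The enzymes that turn lanosterol into cholesterol divided by which treated library was highest. CYP51A1, the lanosterol demethylase, averaged 61.9 ± 8.69 CPM with ethacrynic acid and 51.7 ± 6.41 CPM in control. MSMO1, a sterol methyl oxidase, was at 20.2, 16.6 and 28.4 CPM with ethacrynic acid, against 18.0, 18.4 and 16.6 CPM in control. SC5D, a sterol desaturase, averaged 30.8 ± 6.64 CPM with ethacrynic acid and 29.5 ± 3.70 CPM in control. In these 3 genes the highest treated library was replicate 3. EBP, a sterol isomerase, was instead highest in replicate 1, at 123, 81.9 and 81.5 CPM with ethacrynic acid and 82.7, 68.6 and 71.3 CPM in control. DHCR7, the last reductase of one branch, was at 132, 84.2 and 131 CPM with ethacrynic acid, against 93.9, 94.5 and 89.1 CPM in control. Replicates 1 and 3 of DHCR7 thus lay above and replicate 2 below every control library. NSDHL, a sterol dehydrogenase, averaged 36.9 ± 6.86 CPM with ethacrynic acid and 33.6 ± 1.55 CPM in control, and the reductase TM7SF2 7.08 ± 0.931 CPM and 6.80 ± 0.703 CPM. Adjusted p-values of these 7 genes were between 0.48 and 0.93 (edgeR). Most of the exonic sequence of CYP51A1 is also annotated to a second gene of the same orientation, which makes its level uncertain.

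HSD17B7, a sterol ketoreductase (ENSG00000132196, GRCh38 chromosome 1, 162790702 to 162812817), had the largest fitted difference of the 35 genes. It had 35, 33 and 191 raw counts with ethacrynic acid replicates 1, 2 and 3, against 27, 26 and 33 in control, or 0.573, 0.587 and 2.97 CPM against 0.397, 0.377 and 0.460 CPM. The 3 treated libraries were above control, but 1 of them carried nearly all of the difference. The log2 fold change of 1.74 ± 0.67 (SE, edgeR adjusted p = 0.42) was 0.49 without ethacrynic acid replicate 3 (adjusted p = 0.60). Its named pseudogenes held 9.45% of the counts of the family, so the division of reads is uncertain.

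**Figure D2:**
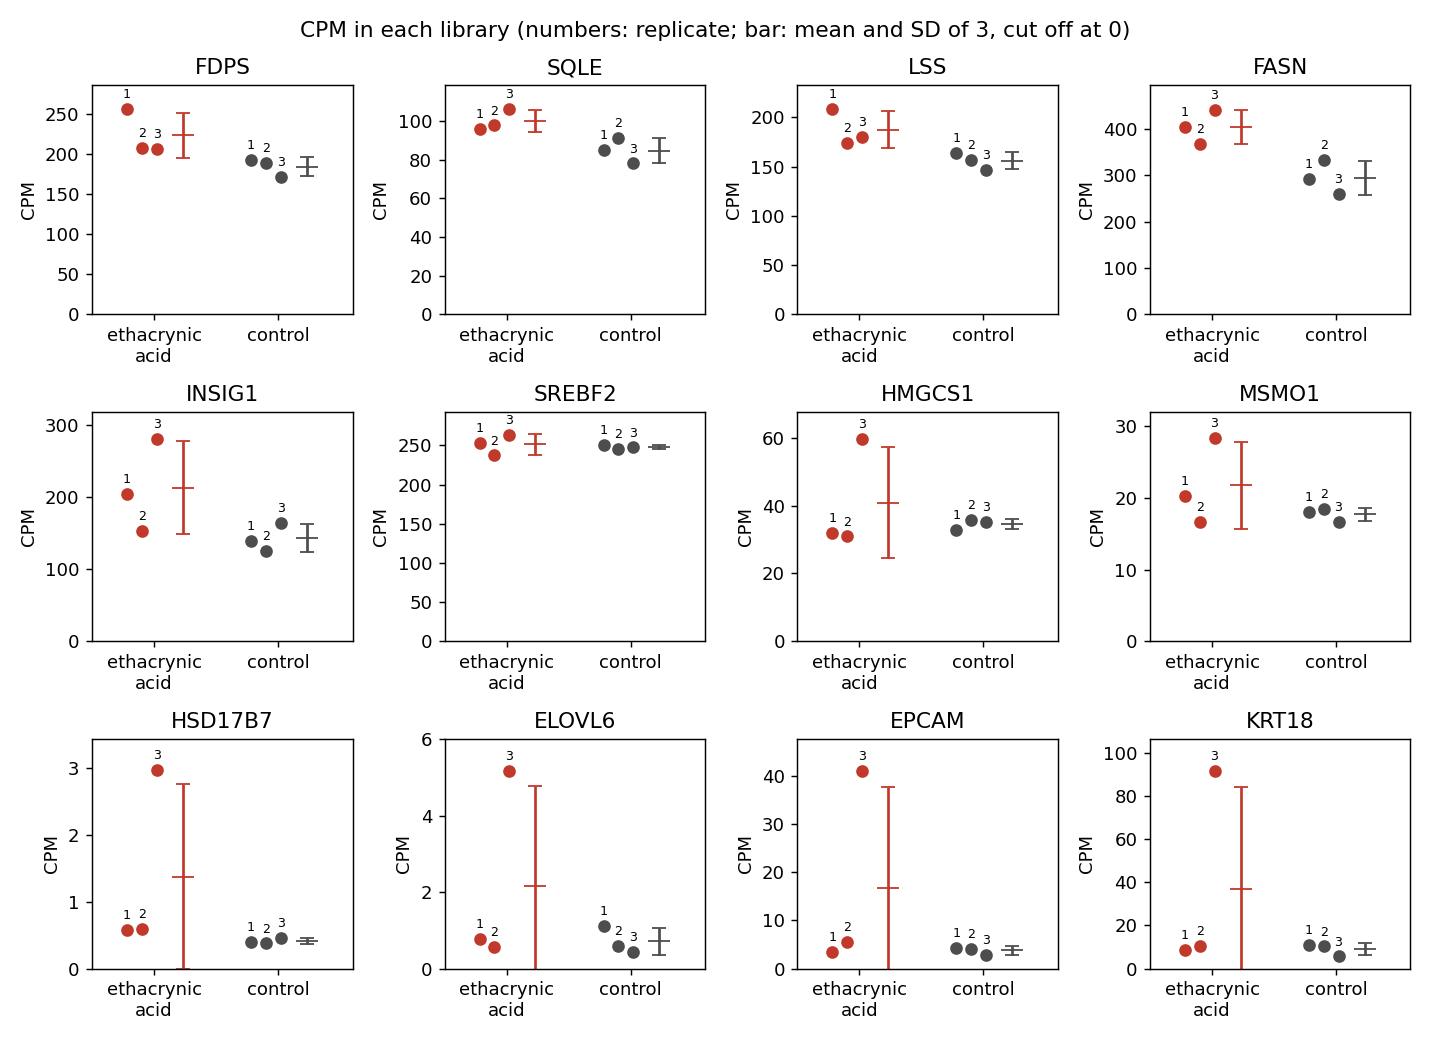
CPM in each library (points, numbered by replicate) with mean and SD of 3, for 10 of the 35 genes and for the epithelial markers EPCAM and KRT18. FDPS, SQLE, LSS and FASN were higher in each treated library than in any control, SREBF2 lay at 237 to 263 CPM in all 6, and in HMGCS1, HSD17B7 and ELOVL6 replicate 3 alone stood far above the rest, as it did in EPCAM and KRT18.

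Of the regulators, INSIG1, which retains SCAP in the endoplasmic reticulum and is itself a sensitive SREBP target, had the largest fitted difference (ENSG00000186480, GRCh38 chromosome 7, 155297776 to 155310235). It was at 204, 153 and 281.5 CPM with ethacrynic acid, against 139.8, 126 and 165 CPM in control. Replicate 2 lay inside the control range and the other 2 above it. The log2 fold change was 0.57 ± 0.21 (SE, unadjusted p = 0.028, edgeR adjusted p = 0.41), with a 95% interval of the fold from 1.06 to 2.09. Without ethacrynic acid replicate 3 it was 0.31 (adjusted p = 0.36). The related INSIG2 averaged 28.2 ± 2.73 CPM with ethacrynic acid and 31.6 ± 1.97 CPM in control (log2 fold change -0.17 ± 0.11 SE, edgeR adjusted p = 0.60).

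SREBF2 was even across the libraries and SREBF1 was not. SREBF2 was at 253, 237 and 263 CPM with ethacrynic acid, against 250.2, 246 and 247.5 CPM in control, and the 95% interval of its log2 fold change ran from -0.17 to 0.21. SREBF1 was at 202, 127 and 173 CPM with ethacrynic acid, against 195, 146 and 187 CPM in control. In both groups replicate 2 had the lowest SREBF1 level, the groups overlapped, and the 95% interval of the log2 fold change ran from -0.49 to 0.35. SCAP was at 124, 119 and 116 CPM with ethacrynic acid, against 115, 110.4 and 114 CPM in control. Its groups stood narrowly apart, and the log2 fold change was 0.08 ± 0.08 (SE, edgeR adjusted p = 0.71). STARD4, a cytosolic sterol carrier, averaged 28.3 ± 5.04 CPM with ethacrynic acid and 30.6 ± 4.40 CPM in control. MYLIP, a ubiquitin ligase gene that LXR raises, averaged 39.1 ± 3.53 CPM with ethacrynic acid and 37.8 ± 1.78 CPM in control.

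Introns of SREBF2 and SREBF1 also carry a pair of microRNAs that repress cholesterol export. Their mature sequences are shown because both share the seed, bases 2 to 8, given in capitals (RefSeq, GRCh38.p14).
hsa-miR-33a-5p, in SREBF2, plus strand, chr22:41900949-41900969: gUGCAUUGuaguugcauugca
hsa-miR-33b-5p, in SREBF1, minus strand, chr17:17813897-17813916: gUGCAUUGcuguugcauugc

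The libraries were of mRNA and do not measure mature miRNAs. The row of the first miRNA gene was at 0 counts in all 6 libraries, and that of the second had 4, 6 and 2 counts with ethacrynic acid and 3, 3 and 1 in control. A well-known target of this seed, the cholesterol exporter ABCA1, was at 0.786, 0.676 and 0.730 CPM with ethacrynic acid, against 0.235, 0.319 and 0.3205 CPM in control. These were 48, 38 and 47 raw counts with ethacrynic acid and 16, 22 and 23 in control. The ABCA1 groups stood apart, but the log2 fold change of 1.32 ± 0.37 did not pass (SE, edgeR adjusted p = 0.29). ABCA1 was chosen after its values were seen. The exporter ABCG1 lay on the other side, at 0.491, 0.409 and 0.404 CPM with ethacrynic acid, against 0.736, 0.565 and 0.850 CPM in control. These were 30, 23 and 26 raw counts against 50, 39 and 61. The ABCG1 groups were apart, and the log2 fold change of -0.72 did not pass (edgeR adjusted p = 0.50). Among all tested genes the groups lay apart upward in 8.64% and downward in 8.99%.

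FASN, the multi-domain fatty acid synthase (ENSG00000169710, GRCh38 chromosome 17, 82078333 to 82098332), had the smallest p of the 35 genes. It was at 405.5, 368 and 441 CPM with ethacrynic acid, against 293, 333 and 259.7 CPM in control. Every treated library was above every control, by a margin of less than the SD of either group. The log2 fold change was 0.45 ± 0.12 (SE, unadjusted p = 0.0055, edgeR adjusted p = 0.25), and the 95% interval of the fold was 1.13 to 1.66. DESeq2 called FASN at an adjusted p of 0.016. Over the 13 alternatives the log2 fold change of FASN lay between 0.37 and 0.55 and the adjusted p between 0.016 and 0.82.

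For the enzymes that supply FASN with its substrates, the groups overlapped. ACLY, which makes cytosolic acetyl-CoA from citrate, averaged 210.5 ± 6.71 CPM with ethacrynic acid and 204 ± 15.6 CPM in control. ACACA, which carboxylates acetyl-CoA in the committed step, averaged 59.2 ± 5.65 CPM with ethacrynic acid and 55.6 ± 3.63 CPM in control. ACSS2, which makes acetyl-CoA from acetate, averaged 49.6 ± 5.78 CPM with ethacrynic acid and 52.6 ± 2.56 CPM in control. For these 3 genes the 95% interval of the log2 fold change lay between -0.34 and 0.33. The difference between FASN and these enzymes was not tested.

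Among the desaturases and elongases, SCD, which introduces the first double bond, was at 778, 671 and 955 CPM with ethacrynic acid, against 712, 739.9 and 729 CPM in control. The control libraries lay close together, and the treated libraries lay on both sides of them. The log2 fold change of SCD was 0.14 ± 0.13 (SE, edgeR adjusted p = 0.72) and -0.01 without ethacrynic acid replicate 3. FADS1 and FADS2, the front-end desaturases of polyunsaturated fatty acids, averaged 143 ± 10.7 and 275 ± 53.7 CPM with ethacrynic acid, against 139.9 ± 13.1 and 260.5 ± 24.1 CPM in control. Their exons overlap in part on opposite strands. Such overlap with a gene on the other strand holds for 16 of the 35 genes, over the longest stretch for ACAT2, and without a stated strand setting those reads cannot be told apart. ELOVL6, which elongates palmitate, had 47, 32 and 333 raw counts with ethacrynic acid and 76, 41 and 32 in control, or 0.770, 0.570 and 5.17 CPM against 1.12, 0.594 and 0.446 CPM. Only replicate 3 exceeded the control range, and the log2 fold change of 1.60 ± 0.84 (SE, edgeR adjusted p = 0.51) was -0.11 without it. LPIN1, a phosphatidate phosphatase, averaged 55.3 ± 6.83 CPM with ethacrynic acid and 62.2 ± 2.99 CPM in control (log2 fold change -0.17 ± 0.11 SE, edgeR adjusted p = 0.59).

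The 3 treated libraries differed among themselves in these genes. Relative to the control mean, the median log2 ratio of the 19 sterol enzymes was 0.27, 0.00 and 0.21 in ethacrynic acid replicates 1, 2 and 3, and 0.03, 0.03 and -0.08 in control replicates 1, 2 and 3. For all tested genes those medians were between -0.01 and 0.01. The highest of the 3 treated libraries was replicate 1 for 11 of the 19 sterol enzymes, replicate 2 for 0 and replicate 3 for 8. Among all tested genes the shares were 38.7%, 24.6% and 36.7%. For the 9 fatty acid enzymes replicate 3 was highest in 6, and for the 7 regulators in 4. A log2 ratio over 0.5 was reached by 5, 0 and 7 of the 35 genes in replicates 1, 2 and 3, against 8.56%, 4.44% and 9.38% of all tested genes. In replicate 3 these were HMGCS1, MSMO1, HSD17B7, DHCR7, INSIG1, FASN and ELOVL6, and that library is the one with high EPCAM and KRT18. The part of those transcripts in the values of replicate 3 was not tested.

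**Figure D3:**
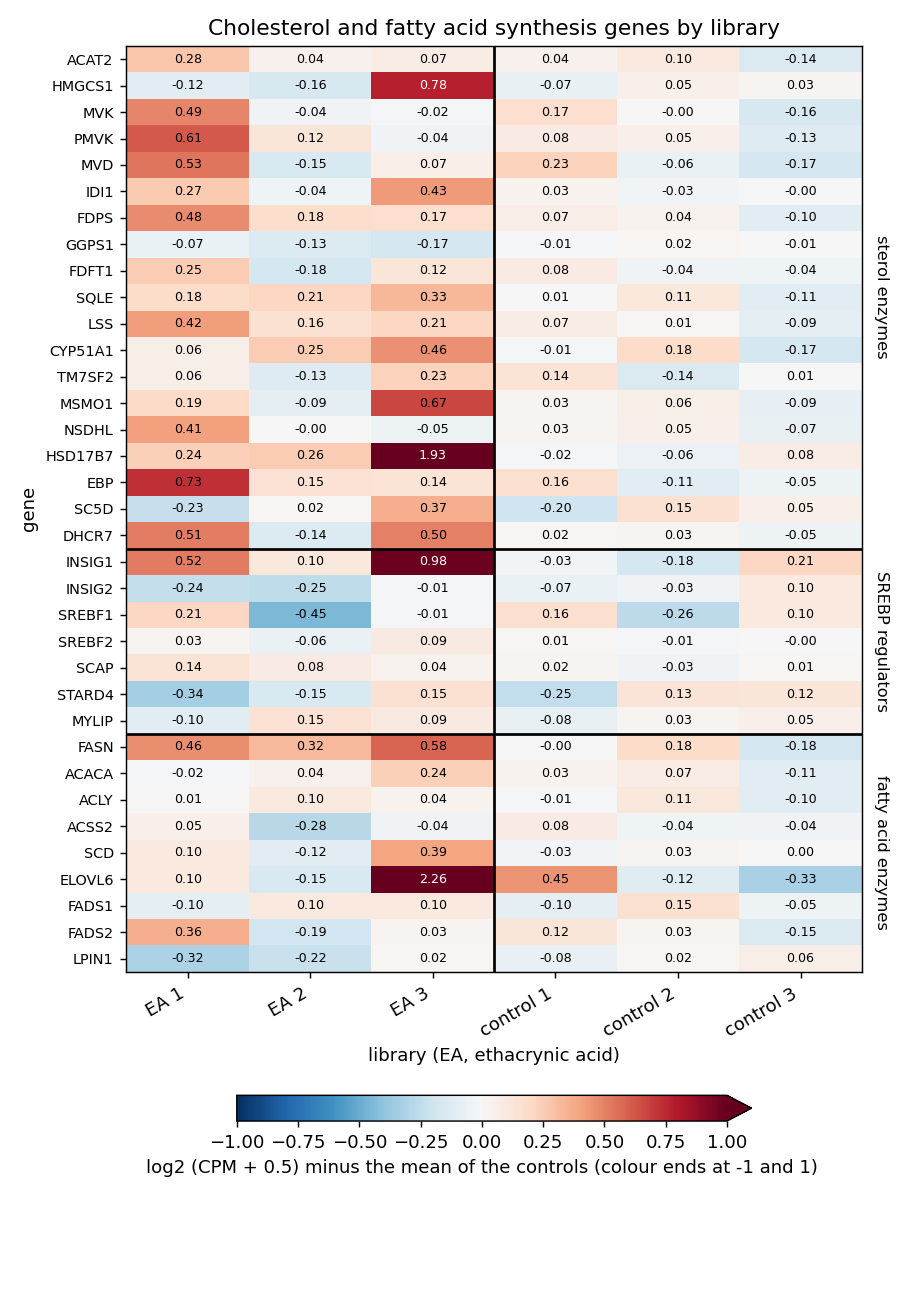
Log2 ratio of each gene in each library to the mean of the control libraries (CPM plus 0.5), with red above and blue below that mean and role groups split by black lines. Replicate 3 carried the largest ratios (ELOVL6 at 2.26 and HSD17B7 at 1.93), replicate 1 was high in EBP, PMVK and MVD, and replicate 2 was near the controls for most sterol enzymes.

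Per kilobase of annotated exon (GENCODE 29, all exons merged), levels ranged widely. SCD led, at 149 ± 26.7 CPM per kb with ethacrynic acid and 135.6 ± 2.58 CPM per kb in control. FDFT1, FDPS, INSIG1 and ACLY came next by control level, at 40.4 to 60.3 CPM per kb with ethacrynic acid and 39.1 to 52.7 CPM per kb in control. In control, FDFT1 and FDPS were within their SDs of each other, as were INSIG1 and ACLY, and FASN and EBP. HSD17B7 and ELOVL6 were lowest, at 0.288 ± 0.289 and 0.298 ± 0.357 CPM per kb with ethacrynic acid and 0.0861 ± 0.00908 and 0.0986 ± 0.0484 CPM per kb in control. Merged exon length overstates the length of the transcripts in use, so these levels compare genes only roughly.

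**Figure D4:**
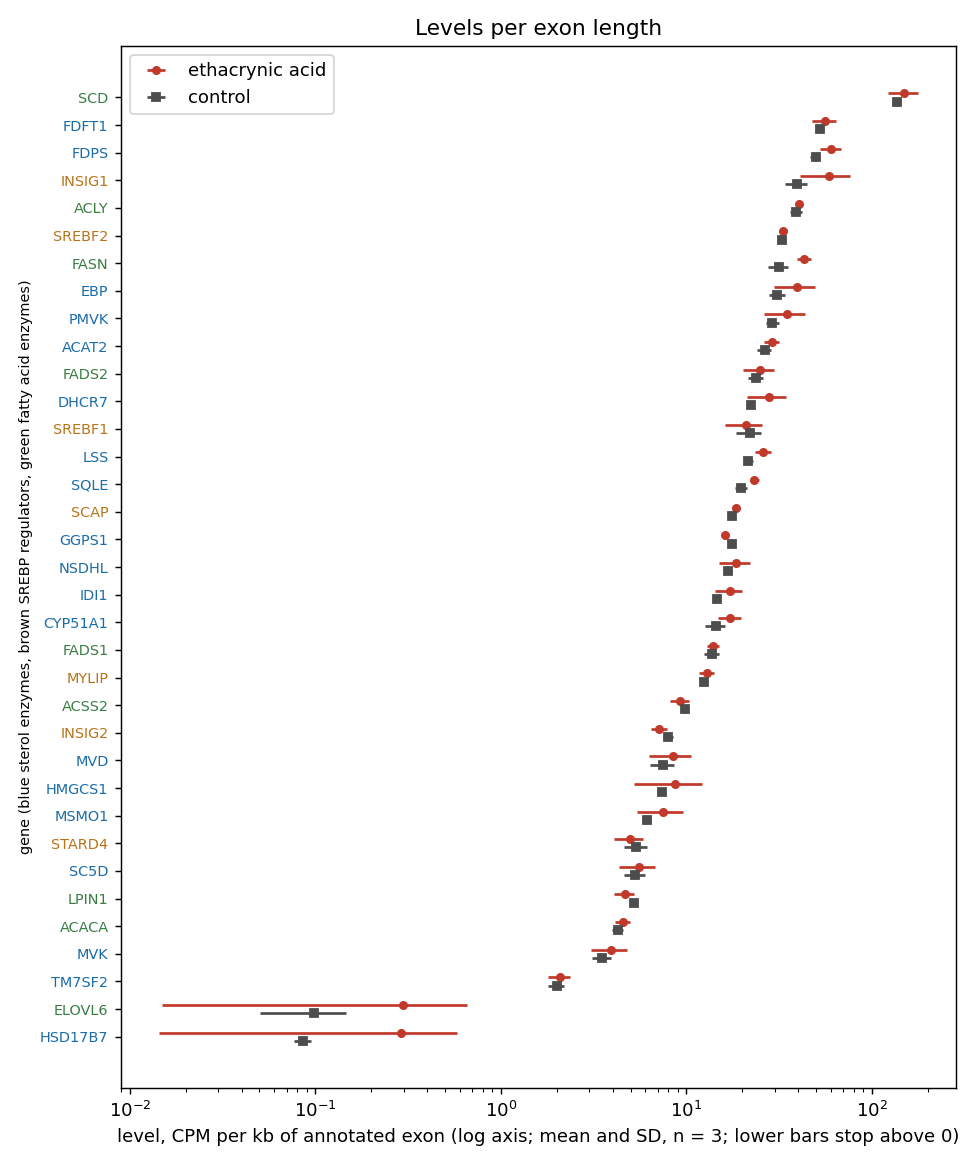
Level of each gene in CPM per kb of merged annotated exon on a log axis (mean and SD, n = 3; circles ethacrynic acid, squares control), ordered by the control level and with names coloured by role. SCD stood above and HSD17B7 and ELOVL6 below the other 32 genes, which lay between 2.08 and 60.3 CPM per kb with ethacrynic acid and between 2.00 and 52.7 CPM per kb in control.

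Further genes of the sterol, SREBP and fatty acid pathways, outside the 35, gave no call by edgeR. Of 10 tested sterol-branch genes, 0 passed, with 8 positive log2 fold changes and a median of 0.06. PDSS2, of ubiquinone synthesis, had the smallest p (log2 fold change -0.28 ± 0.11 SE, edgeR adjusted p = 0.43). Of 15 tested genes that process or degrade SREBP pathway proteins, 0 passed, with 12 positive and a median of 0.17. The ubiquitin ligase gene RNF145 was at 61.4, 55.9 and 65.3 CPM with ethacrynic acid, against 44, 45.6 and 45.1 CPM in control (log2 fold change 0.44 ± 0.09 SE, edgeR adjusted p = 0.15), and DESeq2 called it (adjusted p = 0.0011). Next was the segregase VCP (0.34 ± 0.11, edgeR adjusted p = 0.35). Of 29 tested genes of fatty acid activation, elongation and glycerolipid assembly, 0 passed, with 19 positive and a median of 0.04. ACSL1, an acyl-CoA synthetase, was at 150.5, 195 and 145 CPM with ethacrynic acid, against 107, 118 and 106.5 CPM in control (0.56 ± 0.13, edgeR adjusted p = 0.19, DESeq2 adjusted p = 0.0037). ACSL3 followed (0.28 ± 0.11, edgeR adjusted p = 0.42).

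In the list of LXR targets and cholesterol export, 1 of 14 tested genes passed, as higher, where 0.229% of all tested genes were called higher. CYP27A1, which oxidises cholesterol to 27-hydroxycholesterol, was at 3.05, 2.38 and 1.585 CPM with ethacrynic acid, against 0.353, 0.217 and 0.3205 CPM in control. Its raw counts were few, at 186, 134 and 102 with ethacrynic acid and 24, 15 and 23 in control. All treated libraries were above all controls, and the log2 fold change was 2.97 ± 0.37 (SE, edgeR adjusted p = 0.031). The call ended without any single control library (adjusted p up to 0.21) and without ethacrynic acid replicate 1 or 2 (0.053 and 0.14). It also ended with no filter on low counts (0.095) and with limma-voom (0.071). It held without replicate 3 (0.0060), and over all alternatives the adjusted p lay between 2.3e-09 and 0.21. That list had 11 positive log2 fold changes of 14 and a median of 0.28, against 0.00 for all tested genes. NPC1, which moves cholesterol out of lysosomes, had the next smallest p, at 284, 338 and 255 CPM with ethacrynic acid, against 165.5, 195 and 154 CPM in control. Its log2 fold change of 0.77 ± 0.14 did not pass (SE, edgeR adjusted p = 0.094). NPC1 passed without ethacrynic acid replicate 3 (0.032), with DESeq2 (1.6e-05) and with the filter of at least 5 CPM in 3 libraries.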

How the data were processed

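RNA of U937 cells was sequenced from 3 ethacrynic acid and 3 control libraries, made with a SMARTER kit for mRNA from TRIzol extracts, per the labels' protocols. The authors deposited raw counts per Ensembl gene ID. Build GRCh38 and the tools HISAT2, StringTie 1.3.4d, fastp and edgeR stand in the submitters' processing notes, without their roles. The sources used here give neither the annotation release nor the strand setting.

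Symbols matched 61757 of 61806 IDs. Genes were filtered with filterByExpr (minimum count 10, minimum total 15), TMM-scaled and put through edgeR 4.0.16 (R 4.3.3) with its quasi-likelihood test, group as the only term, and p adjusted by Benjamini-Hochberg over 19611 genes. SE is the absolute log2 fold change over the root of the F statistic, and 95% intervals use the t distribution at that test's degrees of freedom. CPM are per 1e+06 TMM-scaled counts. Alternatives were RLE and total count scaling, 2 other filters, DESeq2 1.42.0, limma-voom 3.58.1, the replicate number as a term and each library left out.

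Exon overlaps and pseudogenes come from GENCODE 29. By the naming rule all 35 genes are given, with the called genes, or else the 2 with the smallest p, of each further list, except 1 gene that is not reported here; ABCA1, ABCG1, NPC1 and the named markers were added after their values were seen. Members and lists were chosen with earlier results of these data known. Depth sets counting precision. Over all tested genes the fit found spread between libraries beyond it (common dispersion of 0.0845). In genes with few counts, such as HSD17B7 in control, the spread need not exceed it.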

Additional observations from a re-analysis of the deposited data

How the results depend on the processing

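Among all tested genes, 45 were higher and 7 lower in the edgeR test. The counts were 14 and 0 with no filter on low counts, 82 and 14 with at least 5 CPM in 3 libraries, and 393 and 205 with DESeq2. With the replicate block they were 247 and 108. Leaving out 1 library gave 4 to 120 higher and 0 to 28 lower, with the highest counts without ethacrynic acid replicate 3. For the 35 genes the count stayed at 0 higher and 0 lower in 12 of the 13 alternatives, and DESeq2 called 1 as higher, FASN, among the fatty acid enzymes. With at least 5 CPM in 3 libraries only 33 of the 35 were tested, without HSD17B7 and ELOVL6. The median log2 fold change of the SREBP regulators, 0.02, was -0.06 under total count scaling. There the median of all genes was -0.08 and 8 of the 35 genes, none of them called, changed sign. In all, 18 of the 35 kept their sign in every alternative that tested them. Without ethacrynic acid replicate 3, 7 genes changed sign, namely HMGCS1, TM7SF2, SC5D, SREBF2, SCD, ELOVL6 and FADS1. Same-numbered libraries deviated together only weakly (correlations of 0.161, 0.0585 and 0.0868), although each treated library correlated best with its own number, and no label pairs them, so the block stands here only. Beyond the 35 genes, in the further lists of SREBP control and fatty acid genes, the block called RNF145, VCP and ACSL1 (adjusted p of 0.0486, 0.0496 and 0.0341). The edgeR test without it did not. In the list of LXR targets and cholesterol export the block called NPC1 and CYP27A1 higher (adjusted p of 0.0051 and 0.026). The exporters ABCA1 and ABCG1 were not called (adjusted p of 0.16 and 0.37). Of the line markers the block called LYZ and CD68 higher (adjusted p of 0.0014 and 0.022). It called PTPRC lower (0.048). HSD17B7 and ELOVL6 had only 26 to 76 counts in each library other than ethacrynic acid replicate 3.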
